A study of Mus musculus with 4 samples.

Results

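The miR-23, miR-27 and miR-24 clusters are a pair of paralogous miRNA loci, miR-23a/27a/24-2 on mouse chromosome 8 and miR-23b/27b/24-1 on chromosome 13. Their members here are the 9 mature arms of these loci that were listed by name, taken from the 1038 known miRNAs in the authors' deposited table, and all 9 were found there. The study asked which miRNAs differ in the medial prefrontal cortex (mPFC) between mice under chronic unpredictable mild stress (CUMS) and control mice. Small RNA was sequenced in 2 CUMS and 2 control libraries from the mPFC of C57BL/6 mice, as the labels give the strain (C57BL/6J in the study's methods). The CUMS mice lived under social isolation and varied mild stressors for 3 weeks, in a procedure that began with juvenile males at postnatal day 21, and were chosen for decreased sucrose preference, less time in a Y-maze arm leading to a female and longer immobility in forced swimming. The control mice lived without these stressors. CUMS mice without a change in the behaviour tests were left out, so the CUMS libraries describe stressed mice with depression-like behaviour and not all stressed mice. RNA was isolated from each mouse, and the labels do not say whether the RNA of several mice was joined in a library.

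A miRNA hairpin is cut into a 5p and a 3p arm, and the arm that is kept in the Argonaute complex pairs with mRNAs through its seed, bases 2 to 8. Since the members of a cluster are cut from a shared primary transcript, they can be made together, while each mature arm is kept or degraded on its own. miR-27 is known for the repression of the fat cell regulator Pparg, miR-23a for the repression of glutaminase, and miR-24 for the repression of the DNA damage histone H2AX. The cluster of miR-23a is well known in endothelial and blood cells, and miR-23b and miR-27b have been linked to the repression of the cell death factor Apaf1 in neurons.

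The sequences below show how close the paralogs are, which decides how well reads can be assigned to each locus. The seed is in capitals, and the sequences are those of RefSeq on GRCm38.p6, where 8 of the 9 members were matched by name. The member without a printed sequence is mmu-miR-23b-3p.
mmu-miR-23a-3p: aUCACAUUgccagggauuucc
mmu-miR-27a-3p: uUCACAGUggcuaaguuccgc
mmu-miR-27b-3p: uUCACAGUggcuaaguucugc
mmu-miR-27a-5p: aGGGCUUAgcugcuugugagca
mmu-miR-27b-5p: aGAGCUUAgcugauuggugaac
mmu-miR-24-3p: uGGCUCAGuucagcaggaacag
mmu-miR-24-1-5p: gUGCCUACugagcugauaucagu
mmu-miR-24-2-5p: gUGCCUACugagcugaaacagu

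The 8 sequences hold 6 seeds. miR-27a-3p and miR-27b-3p share their seed and their first 18 bases, and differ only by C19U (the base of miR-27a-3p first, counted from 1 at the 5′ end). miR-24-1-5p and miR-24-2-5p share their seed and their first 16 bases. The 5p arms of miR-27 differ within the seed, at G3A, and at 7 other positions. No other listed miRNA with a sequence in the table, which holds 884 of the 1038, has one of these seeds. The authors counted reads of 18 to 25 nt that matched a precursor with no mismatch, so an 18 nt read from the first base of miR-27a-3p or miR-27b-3p matches both precursors. In the RefSeq table, 3 groups of listed miRNAs have 1 sequence under several names, and in 3 of the 3 the names had the same whole reads in every library, so reads that matched several names were entered in full under each. The number of short reads that miR-27a-3p and miR-27b-3p share was not tested. Without a sequence for miR-23b-3p, the bases that it shares with miR-23a-3p were not compared. The number of reads shared by that pair was not tested either.

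The miR-23a cluster spans 404 bases of the plus strand at chr8:84208518-84208921 (GRCm38, which is mm10). In GENCODE M21, Mir23a and Mir27a lie between annotated genes, and the end of Mir24-2 overlaps the start of the lincRNA gene Gm26532. The miR-23b cluster spans 792 bases of the plus strand at chr13:63300484-63301275, inside the protein-coding gene 2010111I01Rik on the same strand and Fancc on the opposite strand. Of the 28 annotated transcripts of 2010111I01Rik, 9 span Mir23b, and it overlaps an exon in 0 of them. Mir27b also overlaps an exon of a transcript annotated for nonsense-mediated decay, and Mir24-1 overlaps exons of such transcripts and of noncoding ones. miR-24-3p has the same sequence in Mir24-1 and Mir24-2, so its reads cannot be told apart by locus.

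The deposited values are group means of reads divided by DESeq size factors, from which the reads of every single library could be solved. The depth was 9589323 to 10783592 reads on known miRNAs per library, and a count of 0 allows up to 0.278 to 0.313 CPM (3 reads). Within each group the libraries carry the letters a and b, since the means do not tell which is replicate 1 or 2. Normalized reads below are reads divided by the size factor of the library. In control library b, miR-182-5p took 8.92% of all reads, against 0.0373% to 0.0685% in the other libraries. The 6 epithelial marker miRNAs summed to 997662 normalized reads there and to 3999 to 7245 in the others. The 4 neuronal markers, among them miR-124-3p, had reads in every library. They summed to 232415 and 221163 normalized reads (control a and b) against 267178 and 228749 (CUMS a and b), and all 4 had the higher mean in CUMS. In tissue such as this, fewer cells of a type and less RNA per cell cannot be told apart. With 2 libraries against 2, the smallest two-sided p that an exact permutation test can give is 0.333.

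The members together took 1.22% of the miRNA reads in control library a (95% Wilson interval 1.22% to 1.23%), 1.19% in control library b (1.18% to 1.20%), 1.39% in CUMS library a (1.38% to 1.40%) and 1.40% in CUMS library b (1.40% to 1.41%). These intervals cover counting error only. Most of this share was a single arm: miR-27b-3p made up at least 94.7% of the members' reads in every library. By mean level it ranked 19 among the 1038 listed miRNAs, while the other 8 members ranked between 139 and 487. In order of mean normalized reads, miR-27b-3p was followed by miR-27a-3p, miR-23a-3p, miR-23b-3p, miR-24-3p, miR-27b-5p, miR-24-2-5p, miR-27a-5p and miR-24-1-5p. The step from miR-27b-3p to miR-27a-3p was 67.7-fold and that from miR-24-2-5p to miR-27a-5p was 18.2-fold. From miR-27a-3p down to miR-27b-5p, the range of each arm over the libraries overlapped with that of its neighbour. miR-24-3p and miR-27b-5p had means within 1.02-fold of each other, and each was the higher one in 2 of the 4 libraries. The 8 arms with a sequence are 21 to 23 nt long, and no length correction was made. How efficiently each arm was captured in the library was not tested, and it can change levels between arms.

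**Figure D1:**
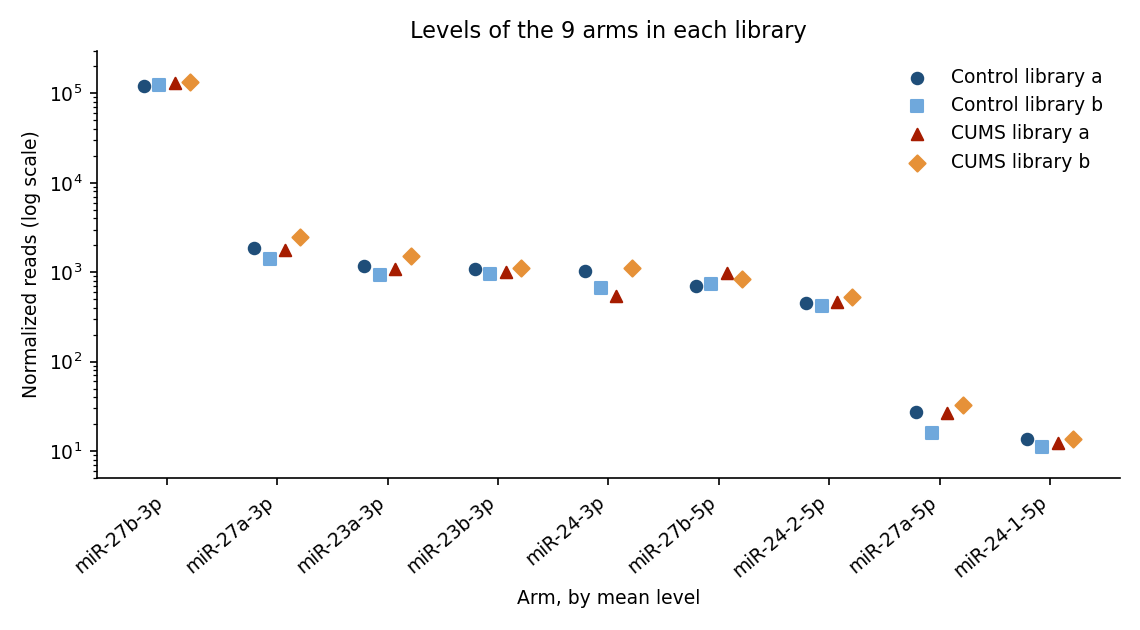
Normalized reads (log scale) of the 9 arms in each of the 4 libraries, ordered by mean level, with 1 point per library. miR-27b-3p lies between 119593 and 135034, 6 arms lie between 418 and 2451, and miR-27a-5p and miR-24-1-5p lie below 33.

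Between the groups, none of the 9 had group means past a fold of 1.5, the fold in the study's criteria, and their folds (CUMS over control) lay between 0.971 for miR-24-3p and 1.36 for miR-27a-5p. Of the 628 miRNAs whose mean reached 5 in either group, 25.6% were past that fold, and of those whose mean reached 50, which include 7 of the members, 7.8% were. With the 4 libraries tested across 719 miRNAs, edgeR's quasi-likelihood test called 0 members at an adjusted p under 0.05 and 0 at an unadjusted p under 0.05, and the DESeq2 Wald test likewise called 0 at both. In the whole table edgeR called 0% at an adjusted p under 0.05 and 4.17% at an unadjusted one, and DESeq2 called 0% and 3.34%. The members' smallest edgeR p was 0.163, and their adjusted p were 0.849 or higher. The mean was higher in CUMS for 8 of the 9 members and for 52.7% of the 628 miRNAs, and the median log2 difference was 0.19 for the members and 0.02 for the 628. Without control library b, in which the epithelial markers stood apart, 6 of the 9 were higher in CUMS, and also 6 without CUMS library b. Without control library a, and also without CUMS library a, 9 of the 9 were higher in CUMS. With CPM, which scale reads to the library total, 9 of the 9 were higher in CUMS, miR-24-3p included. CUMS library b held the highest value of 8 of the 9 members and of 30.3% of the 628 miRNAs. The dispersion that edgeR estimated was below its trend over levels for 8 of the 9 members and for 75.4% of the 719 miRNAs, the exception among the members being miR-24-3p (0.142 against a trend of 0.137).

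**Figure D2:**
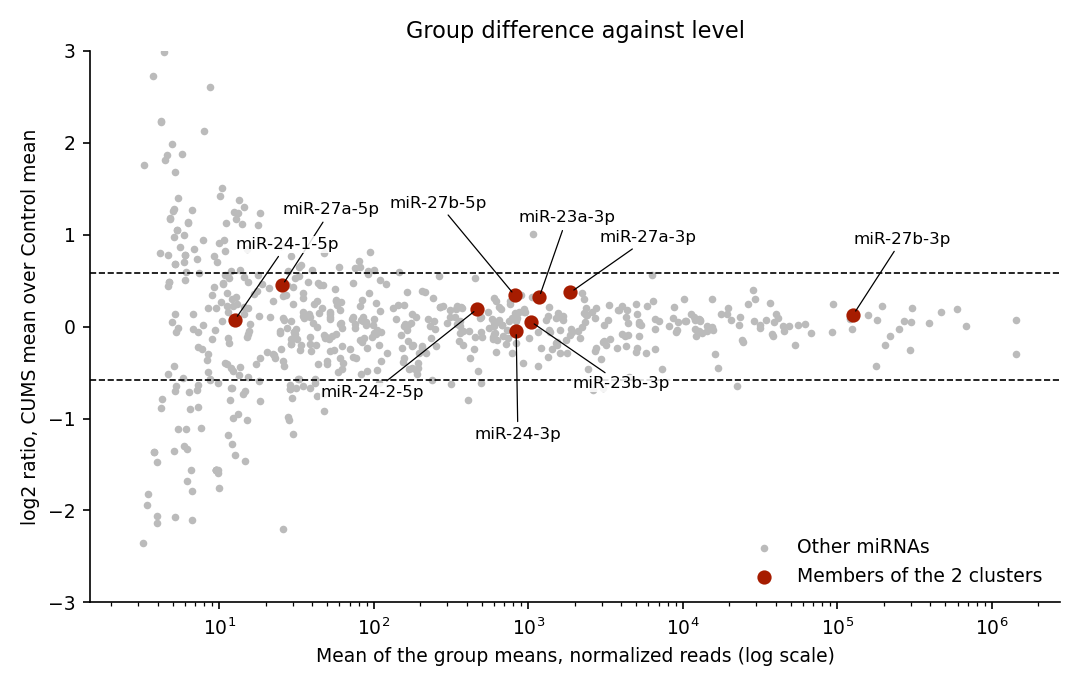
The log2 ratio of the CUMS mean to the control mean (vertical axis) against the mean of both (horizontal axis, log scale), for miRNAs whose mean reached 5 in either group, with reads in both groups; dashed lines mark a fold of 1.5. The 9 members (red) all lie between the lines, and 10 of the other miRNAs lie outside the plotted range of 3 in either direction.

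For 3 members the lower CUMS library exceeded the higher control library, as for 18.2% of the 628 miRNAs. These were miR-27b-3p, miR-27b-5p and miR-24-2-5p. miR-27b-3p, the main product of the chromosome 13 cluster, had 122265 reads in control library a, 123066 in control library b, 138779 in CUMS library a and 127448 in CUMS library b. Pairs of values below keep this order of a before b. After normalization these were 119593 and 123017 in control against 130669 and 135034 in CUMS, means of 121305 ± 2421 and 132851 ± 3087 (SD, n = 2). The groups did not overlap, and the difference of 0.13 on the log2 scale was larger than the difference between the libraries of either group. The fit across all miRNAs gave a DESeq2 log2 fold change of 0.13 with a standard error of 0.17, a 95% interval of 0.868-fold to 1.37-fold, and an edgeR adjusted p of 0.931. miR-27b-3p was the steadiest member, with libraries of a group differing by 0.04 (control) and 0.05 (CUMS) on the log2 scale. Its counting error in these differences was 0.01, so with these size factors the libraries still differed by more than counting alone gives. This depends on the scaling, since its CPM were 11607 and 11412 in control against 13309 and 13291 in CUMS. The log2 difference between the groups was 0.10 with edgeR's TMM scaling and 0.21 in CPM.

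miR-27b-5p, the other arm of the same hairpin, had 717 and 739 reads in control against 1051 and 789 in CUMS. Its normalized reads were 701 and 739 in control against 990 and 836 in CUMS, a difference of 1.27-fold. Both CUMS libraries were higher, and CUMS library a stood furthest from the control libraries. It had the smallest adjusted p of the members in edgeR, 0.849, and the DESeq2 log2 fold change was 0.34 with a standard error of 0.22. miR-24-2-5p, an arm of the chromosome 8 cluster alone, had 466 and 418 reads in control against 493 and 503 in CUMS, or 456, 418, 464 and 533 after normalization. Its groups were apart by a narrow margin, since CUMS library a was close to control library a. Its fold was 1.14, with a DESeq2 log2 fold change of 0.19 and a standard error of 0.24.

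The 3p arms of the chromosome 8 cluster overlapped between the groups. miR-27a-3p, which has the seed of miR-27b-3p, had 1901 and 1413 reads in control against 1893 and 2313 in CUMS, that is 1859, 1412, 1782 and 2451 after normalization. miR-23a-3p had 1195 and 929 reads in control against 1167 and 1429 in CUMS, or 1169, 929, 1099 and 1514 after normalization. For both arms, CUMS library a lay below control library a, and the lowest value was in control library b and the highest in CUMS library b. Their DESeq2 log2 fold changes were 0.37 (standard error 0.23) and 0.31 (standard error 0.24), with edgeR adjusted p of 0.860 and 0.870. When single libraries were left out, the log2 fold ran from 0.12 to 0.58 for miR-27a-3p and from 0.07 to 0.53 for miR-23a-3p. miR-27a-5p, the rare arm of the miR-27a hairpin, had 28 and 16 reads in control against 28 and 31 in CUMS. It had the largest fold of the members, 1.36, and its counting error of 0.45 between the control libraries on the log2 scale was as large as its log2 fold of 0.45. Without control library a its fold was 1.85, and without CUMS library a it was 1.51.

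miR-23b-3p, from the chromosome 13 cluster, had 1112 and 950 reads in control against 1074 and 1043 in CUMS. Normalized, these were 1088, 950, 1011 and 1105, and both CUMS values lay within or just above the range of the control values. Its fold was 1.04, with an interval of 0.780-fold to 1.37-fold by DESeq2. miR-24-1-5p, the rarest member, had 14 and 11 reads in control against 13 and 13 in CUMS. At this depth, its DESeq2 interval ran from 0.270-fold to 4.08-fold, so a difference of the sizes seen in the other members was not detectable.

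miR-24-3p, which is annotated in both clusters, had the largest difference between the CUMS libraries of all members. It had 1049 and 671 reads in control against 580 and 1039 in CUMS. The normalized reads of 1026 and 671 in control against 546 and 1101 in CUMS placed the control libraries between the CUMS libraries. The CUMS libraries differed from each other by 1.01 on the log2 scale, with a counting error of 0.07, and the group means by -0.04. Its fold moved from 0.971 to 0.644 without CUMS library b, past the criterion of 1.5 in the lower direction, and its log2 fold was 0.38 without CUMS library a. The libraries of a group thus differed more than the groups did, as they did within the control group for 6 of the 9 members. The share of all miRNAs with such a spread was not counted, so the 6 are not read as particular to these clusters.

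The libraries were ordered alike for most arms. Of the 9 members, 7 were higher in control library a than in b and higher in CUMS library b than in a, an order seen after the values were known. The exceptions were miR-27b-3p and miR-27b-5p. For some of the 7 the order was weak. Between the CUMS libraries, miR-24-1-5p differed by 0.17 on the log2 scale with a counting error of 0.57. miR-27a-5p differed there by 0.32, with a counting error of 0.38. miR-24-1-5p (13 and 13 reads) and miR-23b-3p (1074 and 1043 reads) had the order in CUMS only after division by the size factors. Of the 605 miRNAs whose mean reached 5 in either group and that had reads in all libraries, 28.6% had this order. The 7 are not 7 independent observations, since they come from 2 loci and the same libraries. The mural cell markers, miR-143-3p and miR-145a-5p of smooth muscle and pericytes, both had the same order, with sums of 297613 and 210240 normalized reads in control against 204654 and 293399 in CUMS. The endothelial markers miR-126a-3p and miR-126a-5p summed to 13692 and 12754 in control against 13020 and 14763 in CUMS, but only miR-126a-5p had the order of the 7 members. miR-126a-3p had the opposite order, with 1810 and 1868 in control against 1735 and 1589 in CUMS. The 4 blood and immune markers summed to 494 and 447 in control against 433 and 645 in CUMS, and 3 of the 4 had this order, miR-142a-3p being higher in control library b than in a. All markers of these 3 lists had reads in every library. The order was also that of 2 of the 4 neuronal markers (miR-124-3p and miR-137-3p) and 1 of the 2 oligodendrocyte markers (miR-219a-2-3p). It was that of 0 of the 6 epithelial markers, and not that of the choroid plexus marker miR-204-5p. The part of any of these markers in the order of the members was not tested. Control library b, with its high epithelial markers, held the lowest value of 6 of the 9 members and of 23.9% of the 628 miRNAs, and the part of this library's composition was not tested either.

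**Figure D3:**
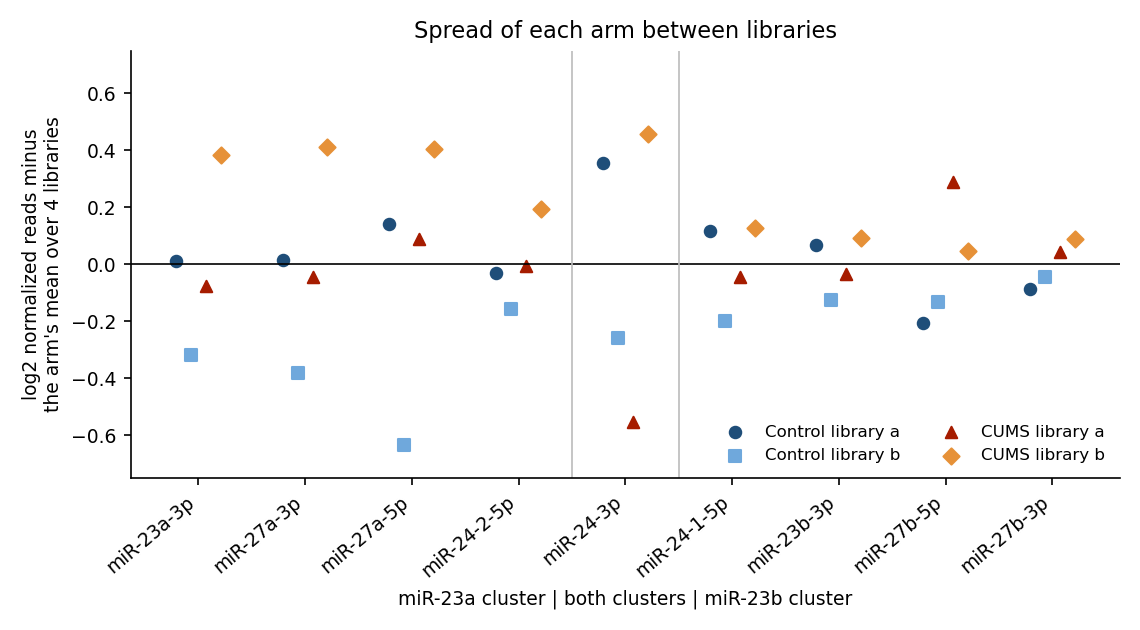
The log2 normalized reads of each arm in each library minus the mean of that arm over the 4 libraries, with 1 point per library; grey lines separate the arms of the miR-23a cluster, miR-24-3p and the arms of the miR-23b cluster. Control library b lies lowest for the arms of the miR-23a cluster, CUMS library a lies lowest for miR-24-3p, and the 4 points of miR-27b-3p lie closest together.

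Ratios of reads within a library need no size factor, but differences in capture between arms and shared short reads can still change them. miR-23b-3p and miR-23a-3p were nearly equal, with ratios of 0.931 and 1.02 in control against 0.920 and 0.730 in CUMS. The ratio was lower in both CUMS libraries, CUMS library a being just below control library a. The difference was -0.25 on the log2 scale with a spread of 0.18 (pooled SD), and the p of the exact permutation test was 0.333, the lowest it can reach. Single libraries moved this difference, which was -0.08 without CUMS library b and -0.42 without CUMS library a. For miR-27, the same comparison gave a very different balance. miR-27b-3p outnumbered miR-27a-3p by 64.3-fold and 87.1-fold in control, against 73.3-fold and 55.1-fold in CUMS, and the groups overlapped. The log2 difference of -0.24 became -0.02 without control library b, -0.03 without CUMS library b, -0.45 without control library a and -0.44 without CUMS library a. The 5p arms of miR-24 had the opposite balance, with 0.0300 and 0.0263 reads of miR-24-1-5p for each read of miR-24-2-5p in control against 0.0264 and 0.0258 in CUMS. The locus with more reads therefore differed from arm to arm.

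Within a cluster, miR-27a-3p and miR-23a-3p kept nearly the same ratio in every library, 1.59 and 1.52 in control against 1.62 and 1.62 in CUMS. Over the 4 libraries this ratio varied by 1.07-fold, while miR-23a-3p varied by 1.63-fold and miR-27a-3p by 1.74-fold. The ratio of miR-27b-3p to miR-23b-3p was 110 and 130 in control against 129 and 122 in CUMS. This ratio varied by 1.18-fold, more than either arm alone, with 1.16-fold for miR-23b-3p and 1.13-fold for miR-27b-3p. Both of these ratios were chosen after the values were seen. Between the arms of a hairpin, miR-27a-3p exceeded miR-27a-5p by 67.9-fold and 88.3-fold in control, against 67.6-fold and 74.6-fold in CUMS, with overlap. miR-27b-3p exceeded miR-27b-5p by 171-fold and 167-fold in control, against 132-fold and 162-fold in CUMS. This ratio was lower in both CUMS libraries, by 0.21 on the log2 scale with a spread of 0.15, and the exact permutation test again gave 0.333. CUMS library b was close to control library b, at 7.34 against 7.38 on the log2 scale, with a counting error of 0.05 in each. Without CUMS library a the log2 difference was -0.06, and without CUMS library b it was -0.35. For miR-24, the 3p arm of both loci exceeded the 5p arms of both by 2.19-fold and 1.56-fold in control, against 1.15-fold and 2.01-fold in CUMS. The 5p sum was steady at 429 to 516 reads, while miR-24-3p ranged from 580 to 1049 reads.

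**Figure D4:**
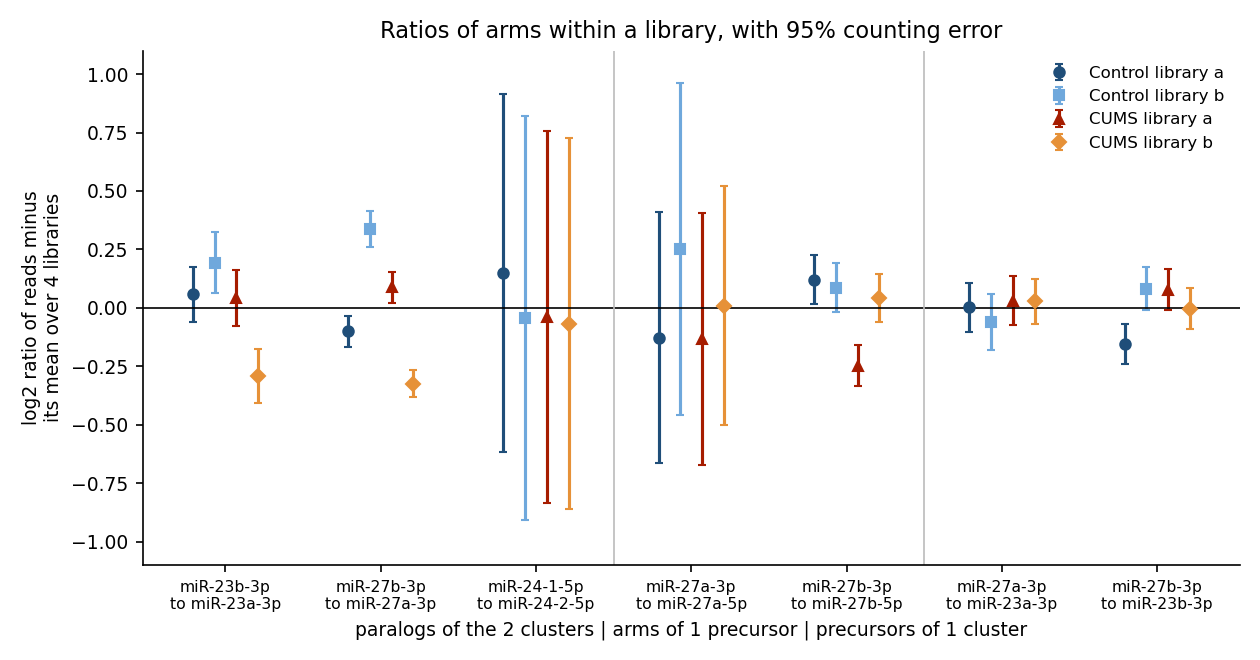
The log2 ratio of reads of 2 arms within each library minus the mean of that ratio over the 4 libraries; bars show 95% counting error, and grey lines separate paralogs, arms of a hairpin, and hairpins of a cluster. The ratio of miR-27a-3p to miR-23a-3p lies within its counting error of its mean in all libraries, while that of miR-27b-3p to miR-27a-3p is highest in control library b and lowest in CUMS library b.

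Summed over the 4 arms that the miR-23a cluster alone gives, normalized reads were 3512 and 2775 in control against 3372 and 4531 in CUMS. The means were 3143 ± 521 and 3951 ± 819 (SD, n = 2), a fold of 1.26, and the groups overlapped (exact permutation p = 0.667). The log2 difference of 0.33 was 0.10 without CUMS library b, 0.17 without control library b, 0.51 without control library a and 0.53 without CUMS library a. The 4 arms of the miR-23b cluster summed to 121396 and 124716 in control against 132682 and 136989 in CUMS. These sums, mostly miR-27b-3p, did not overlap, with a log2 difference of 0.13 and an exact permutation p of 0.333. Without miR-27b-3p the other 3 arms summed to 1803 and 1699 in control against 2013 and 1955 in CUMS, which did not overlap either, at a fold of 1.13. Of these 3 arms, only miR-27b-5p was itself apart between the groups, with means of 720 in control and 913 in CUMS. miR-23b-3p (fold 1.04) and miR-24-1-5p (fold 1.05) overlapped.

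Other arms of these loci were scarce. Of the 5 looked for, 3 are listed in the table. miR-23b-5p had 1 read in control library a and 0 in the others. miR-3074-5p, from hairpins antisense to both miR-24 hairpins, had 24 and 35 reads in control against 30 and 16 in CUMS, a fold of 0.773 with an edgeR adjusted p of 0.931. miR-3074-1-3p had 1 and 4 reads in control against 0 and 0 in CUMS.

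Outside the members, the miRNAs with the values nearest to those of each main arm were found by the Euclidean distance of log2 normalized reads over the 4 libraries. miR-27b-3p was nearest to miR-125b-5p, at a distance of 0.04, which had 117698 and 123624 normalized reads in control against 131953 and 132148 in CUMS. miR-23b-3p was nearest to miR-376b-5p, at 0.20. miR-24-3p was nearest to miR-146a-5p, at 0.46, which had 939 and 774 in control against 429 and 977 in CUMS, and so also its lowest value in CUMS library a. miR-23a-3p was nearest to miR-488-5p, at 0.42, and miR-27a-3p to miR-872-5p, at 0.49. The next nearest were miR-486a-5p for miR-27b-3p at 0.22, miR-488-5p for miR-23b-3p at 0.32, miR-370-5p for miR-24-3p at 0.63, miR-142a-5p for miR-23a-3p at 0.49 and miR-1843b-3p for miR-27a-3p at 0.52. This distance measures level as well as order over only 4 libraries.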

How the data were processed

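Small RNA of the mPFC was sequenced in 2 control and 2 CUMS libraries. The authors removed adaptors, low-quality reads and other noncoding RNAs, matched reads of 18 to 25 nt to miRBase precursors with no mismatch and at least 16 nt on the mature miRNA, and compared groups with DESeq. Bowtie and mm10 are named in the submitters' processing notes, and versions are not given in the sources used here. The signal in the deposited table is the mean of each group's reads divided by DESeq size factors. The file does not name the groups, and its first mean was taken as control and its second as CUMS, as the study prints them. The table also holds the authors' fold changes and p-values, which were not used.

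A mean over libraries of different size factor holds the reads of each library multiplied by a fixed step. Solving for both steps gave whole reads for 100% of the 1038 values in either group, to within 1e-09 of the value. For 2 of the control values, neither of a member, another pair was nearly as close. The steps differ by 2.19% in control and 12.5% in CUMS, so a single step could not describe the CUMS means. The recovery and the fits were tested on simulated data.

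The file holds group means, so the main comparison is their ratio, with a fold of 1.5 and a mean of at least 5 as the limits. The count tests on the recovered reads are alternatives: edgeR 4.0.16 (quasi-likelihood, TMM) and DESeq2 1.42.0 (Wald) in R 4.3.3, on miRNAs reaching 5 reads in at least 1 library, with Benjamini-Hochberg adjustment over all of them and intervals at 95%. Other values came from Python 3.11.15, scipy 1.17.1 and numpy 2.4.6. The members, gene lists and tests were chosen with earlier results of these data known. The named miRNAs are all 9 members, other arms of the loci, miRNAs sharing a seed, the 2 nearest for each main arm, and markers of cell types.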

Additional observations from a re-analysis of the deposited data

How the results depend on the processing

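The count of 0 members past a fold of 1.5 was unchanged with TMM scaling, CPM, rescaled group means, 1 added to the means, a fold of 2, no minimum mean and a minimum of 50. It was 3 (miR-27a-5p, miR-27a-3p and miR-27b-5p) at the lower fold threshold tried. It was between 0 and 1 when single libraries were left out, the 1 being miR-27a-5p without control library a or CUMS library a and miR-24-3p without CUMS library b. Over all miRNAs the count past a fold of 1.5 was 161, and it was 176 to 215 when single libraries were left out. It was 503 with no minimum mean and 29 with a mean of at least 50. edgeR called 0 members in all its alternatives, with adjusted p from 0.659 to 0.999. The log2 difference of the miR-23b cluster's summed reads was 0.13 and became 0.21 in CPM. The part of the miR-182-5p reads of control library b in this shift was not tested. The log2 difference of miR-24-3p ran from -0.64 to 0.38 when single libraries were left out. The arm ratio of miR-27a changed sign without control library b, to 0.07 on the log2 scale. Of 72 recomputed member folds, 7 changed sign, all of miR-24-3p, miR-23b-3p or miR-24-1-5p, and 4 moved by more than the spread between libraries. These 4 were miR-27b-3p with TMM (log2 fold 0.10) and CPM (0.21), miR-27a-5p without control library a, and miR-24-3p without CUMS library b. No paired analysis was possible because the columns carry no replicate numbers. The p-values set group differences only against the spread between these libraries, and edgeR and DESeq2 estimate this spread partly from the other miRNAs. The rare arms miR-27a-5p and miR-24-1-5p are limited by depth.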

Other observations

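Of the other marker lists, the 2 oligodendrocyte markers miR-219a-2-3p and miR-338-3p summed to 7693 and 8173 normalized reads in control against 6011 and 7154 in CUMS, and the choroid plexus marker miR-204-5p had 16817 and 21995 in control against 15872 and 12609 in CUMS. Both sums were lower in both CUMS libraries, and edgeR gave 0 of these markers an unadjusted p under 0.05. The share of all miRNAs that were lower in both CUMS libraries was not counted. DESeq2 gave miR-204-5p an unadjusted p of 0.0287 in its fit across all miRNAs, with an adjusted p of 0.984. The epithelial list had 5 of 6 markers at an unadjusted edgeR p under 0.05 and 0 at an adjusted one, and DESeq2 gave the same counts. Of the 719 miRNAs, 4.17% had such an unadjusted p in edgeR and 3.34% in DESeq2. The epithelial sum was 3999 and 997662 normalized reads in control against 4876 and 7245 in CUMS. It was thus high in control library b alone, and the groups overlapped. Of the neuronal markers, DESeq2 gave miR-124-3p an unadjusted p of 0.0338 (adjusted p = 0.998), and edgeR an unadjusted p of 0.0590.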
